A study of Mus musculus with 5 samples.

Results

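The enzymes and helper proteins that turn procollagen chains into cross-linked fibrils were followed in marrow stromal cells labelled as knockout for the clock factor BMAL1. The 10 genes were taken by symbol from 14161 genes listed in any library: P4ha1, P4ha2, Plod1 and Plod2 for hydroxylation, Serpinh1 for chaperoning, Pcolce and Bmp1 for propeptide trimming, and Lox, Loxl1 and Loxl2 for cross-linking. All 10 had counts in every library. Bmal1-knockout cells gave 3 libraries and Wild Type cells gave 2, all labelled as cultured mesenchymal stem cells. Both groups were C57BL/6, from femur marrow of mice 6 to 8 weeks old, grown in α-MEM with 12% FBS to passages 1 to 3. The sources used here give neither how the allele was made nor whether the libraries came from separate animals, and p-values therefore measure the spread between these libraries, which may be technical. BMAL1 is the partner of CLOCK in driving the circadian clock, and the comparison asks how these genes differ between the 2 genotypes.

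Procollagen chains are hydroxylated on proline and lysine in the endoplasmic reticulum. Prolyl hydroxylation lets the triple helix stay folded at body temperature, and lysyl hydroxylation prepares the residues that later form cross-links. A collagen-specific chaperone accompanies the helix out of the endoplasmic reticulum, proteases then remove the propeptides, and copper-dependent lysyl oxidases join the assembled molecules. Stromal cells of marrow and bone carry out this programme while laying down the type I collagen of bone.

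Each library held between 211623 and 281990 expected counts, which is shallow. Levels are CPM, counts per 1e6 counts of the tested genes after TMM scaling, and 3 counts in a library correspond to 12.1 to 15.9 CPM. The deleted gene, Arntl, had 4, 1 and 2 counts in knockout libraries, against 5 and 0 in wild type libraries, a ratio of 0.843 with an exact interval of 0.230 to 3.37 (95%, counting error only), so it does not check the labels. The culture carried macrophage RNA as well as stromal RNA. The 17 macrophage markers, all listed, summed to 10650 to 11850 CPM in knockout libraries, against 17080 to 17480 CPM in wild type libraries; none was at 0 in any library, and 9 fell while none rose (edgeR; also none at an unadjusted p under 0.05, nor in DESeq2 or limma). Of all 3710 tested genes 8.14% fell and 8.19% rose in edgeR. Lyz2, the lysozyme of macrophages, fell by 0.67 on the log2 scale and Ctss, a lysosomal protease, by 0.86. Of the 12 stromal markers 7 were tested, with 1 higher, Cxcl12, and 1 lower, Cd44. The 12 summed to 1825 to 2132 CPM in knockout libraries, against 1419 to 1536 CPM in wild type libraries. That sum was led by Cxcl12 (mean 726 CPM in knockout, 292 in wild type libraries) and Itgb1 (744 and 578), while Cd44 went down (121 and 243). Of the 7 tested, 4 had a positive log2 fold change, with a median of 0.15, so the sum is not read as a general rise. Cxcl12, the chemokine of marrow stroma, rose by 1.31, Itgb1, an integrin chain, was at 0.37 and did not pass, and Thy1, a surface marker of mesenchymal cells, was at 0 in knockout 2 and 3 and wild type 2. Endothelial markers summed to 166 to 207 CPM in knockout libraries, against 165 to 202 CPM in wild type libraries; their highest 2, Pecam1 and Emcn, were at -0.37 and 0.01 and did not pass. The muscle, erythroid and lymphoid markers held 10, 2 and 13 counts over all 5 libraries, the muscle counts all in knockout libraries, with Acta1, Hba-a1 and Cd3e at 0. In bulk RNA, fewer cells of a type and less RNA per cell cannot be told apart, and the part of this shift between cell types in the results below was not tested.

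In the knockout libraries 5 of the 10 enzymes rose, none fell, also at an unadjusted p under 0.05 or in DESeq2 or limma, and 5 did not pass. Pcolce, Serpinh1, Lox, Plod2 and Loxl2 were 5.61-, 3.99-, 2.78-, 2.16- and 2.08-fold higher. The test was edgeR's quasi-likelihood test with Benjamini-Hochberg adjustment over 3710 genes, of which 8.19% rose and 8.14% fell at an adjusted p under 0.05. Every knockout library lay above both wild type libraries for 8 of the 10, a pattern that 21.2% of all tested genes showed; the exceptions were Plod1 and Loxl1. The median log2 fold change was 0.96 over the 10 and 0.01 over all tested genes. The 10 were chosen with earlier results of these data known, so these values describe the 10 and do not test them as a set. Summed, the 10 genes came to 3534 ± 76.7 CPM (SD, n = 3) in the knockout and 1550 ± 32.8 CPM (n = 2) in wild type libraries.

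**Figure D1:**
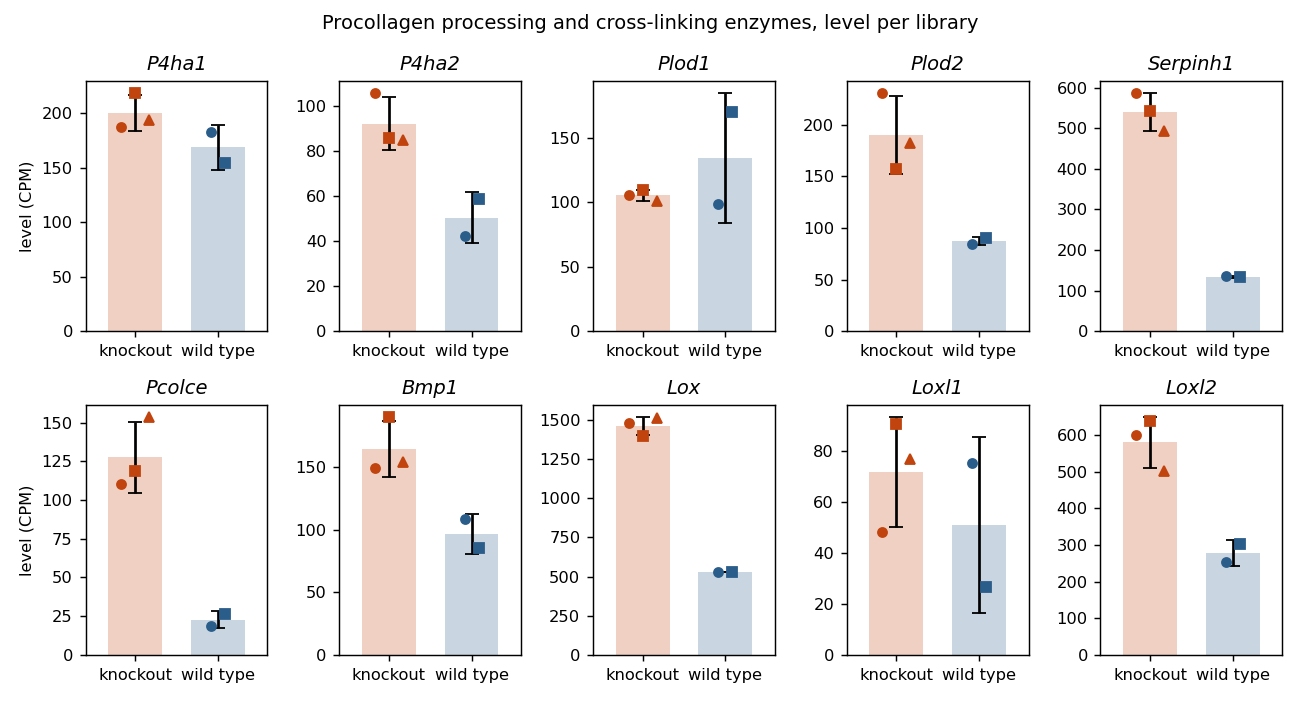
Level of each of the 10 genes in CPM in the 3 knockout (orange) and 2 wild type (blue) libraries; bars are group means, whiskers SD, and points single libraries. The knockout points lie above both wild type points in every panel except those of Plod1 and Loxl1, with the widest gap, relative to the wild type level, for Pcolce.

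BMAL1 and CLOCK bind DNA at E-boxes, so promoters are shown for the 2 enzymes with the largest fold changes, Serpinh1 and Pcolce, and for P4ha1, which did not pass. RefSeq promoters (build GRCm38.p6, from 250 bases before to 50 bases after the start of transcription) matched 5 of the 10 genes: P4ha1, P4ha2, Plod1, Serpinh1 and Pcolce. Plod2, Bmp1, Lox, Loxl1 and Loxl2 were not matched. The 250 bases before the start are given 5′ to 3′ on the gene's strand, for Serpinh1 at chr7:99353240-99353489 (minus strand), Pcolce at chr5:137611405-137611654 (minus strand) and P4ha1 at chr10:59323046-59323295 (plus strand). The start used lies inside the annotated gene for Pcolce and P4ha1. Capitals mark ACGTG on either strand, a form of the core of hypoxia response elements that also lies inside the canonical E-box. The other form of that core, GCGTG, was neither marked nor counted, so the capitals do not show every hypoxia core.
Serpinh1: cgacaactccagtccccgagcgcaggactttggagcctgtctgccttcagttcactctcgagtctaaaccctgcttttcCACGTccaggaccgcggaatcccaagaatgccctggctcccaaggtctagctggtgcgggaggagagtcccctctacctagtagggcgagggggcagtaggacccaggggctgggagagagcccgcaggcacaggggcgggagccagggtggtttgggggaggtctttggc
Pcolce: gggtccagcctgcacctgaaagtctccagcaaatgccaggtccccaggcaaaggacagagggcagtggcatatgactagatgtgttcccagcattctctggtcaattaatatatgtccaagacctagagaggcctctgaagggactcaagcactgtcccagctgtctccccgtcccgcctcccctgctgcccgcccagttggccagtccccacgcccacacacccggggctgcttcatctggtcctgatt
P4ha1: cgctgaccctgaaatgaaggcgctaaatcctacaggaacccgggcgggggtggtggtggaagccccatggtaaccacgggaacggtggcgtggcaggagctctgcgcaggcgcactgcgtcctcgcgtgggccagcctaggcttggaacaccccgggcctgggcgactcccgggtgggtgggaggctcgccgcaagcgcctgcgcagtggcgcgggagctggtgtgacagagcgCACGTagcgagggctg

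The canonical E-box CACGTG, which reads the same on both strands, was in none of the 5 promoters, against 7.15% of all 32851 promoters of the same length. The variant CACGTT, searched on both strands, was also in none, against 4.68%. ACGTG, searched on both strands, was found in Serpinh1, P4ha1 and P4ha2, against 19.6% of all promoters. It began at -171 in Serpinh1, at -16 in P4ha1 and at -78 and 11 in P4ha2, counted from the start of transcription. CCAAT, on either strand, was in none of the 5, against 37.4%. A match is a run of letters and not a shown binding site, and enhancers lie outside these windows.

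Of the 4 hydroxylation genes 1 passed the test, and differences between their fold changes were not tested. P4ha1 and P4ha2 encode catalytic subunits of prolyl 4-hydroxylase, whose product 4-hydroxyproline holds the triple helix together. P4ha1 (chromosome 10, 59323197 to 59373304, mm10) had 39, 46 and 48 counts in knockout libraries, against 39 and 29 in wild type libraries. Its levels were 187, 219 and 194 CPM in knockout libraries, against 183 and 154 CPM in wild type libraries, so the groups were narrowly apart. The log2 fold change was 0.24 (SE 0.26, adjusted p = 0.598, edgeR).

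P4ha2 (chromosome 11, 54100924 to 54131668, mm10), the second catalytic subunit, had 106, 85.6 and 85.0 CPM in knockout libraries, against 42.3 and 58.5 CPM in wild type libraries. All knockout values were the higher ones, but they rested on 18 to 22 counts against 9 and 11, and the difference of 0.87 (SE 0.41, adjusted p = 0.133, edgeR) did not pass. P4hb, protein disulfide isomerase, which completes the prolyl hydroxylase tetramer and also folds many other proteins, had 658, 518 and 518 CPM in knockout libraries, against 639 and 654 CPM in wild type libraries. Its log2 fold change was -0.20 (adjusted p = 0.411), with overlapping groups.

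Plod1 and Plod2 encode lysyl hydroxylases. Plod1 acts mainly on lysines of the helix, and Plod2 on those of the telopeptides, the short ends from which the stable cross-links of bone and scar are made. Plod2 (chromosome 9, 92539636 to 92608428, mm10) had 231, 157 and 182 CPM in knockout libraries, against 84.6 and 90.3 CPM in wild type libraries. The lowest knockout library was well above both wild type libraries, and Plod2 rose by 1.11 on the log2 scale (SE 0.31, adjusted p = 0.00342, edgeR). The call was lost without wild type 1 (1.05, adjusted p = 0.108), without wild type 2 (1.15, adjusted p = 0.0546) and in limma on log2(FPKM + 1) (1.02, adjusted p = 0.0581), with the direction kept in each. Of its exon bases 346 lie opposite Gm38391.

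Plod1 (chromosome 4, 147909753 to 147936776, mm10) had 106, 109 and 101 CPM in knockout libraries, against 98.7 and 170 CPM in wild type libraries. One wild type library lay below and the other above all 3 knockout libraries, and the log2 fold change was -0.33 (SE 0.31, adjusted p = 0.527, edgeR). It turned to 0.09 without wild type 2, so no direction can be given for Plod1.

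The split of counts between Plod1 and Plod2 was also compared. It leaves out Plod3, a further lysyl hydroxylase, so it is not a split of all lysyl hydroxylase counts. Plod3 had 31, 27 and 25 counts in knockout libraries, against 26 and 28 in wild type libraries. Of the Plod1 and Plod2 counts together, Plod2 made up 68.6%, 58.9% and 64.3% in knockout libraries, against 46.2% and 34.7% in wild type libraries. Exact binomial intervals (Clopper-Pearson, 95%, counting error only) were 56.4% to 79.1%, 45.0% to 71.9% and 51.9% to 75.4% in knockout libraries, against 30.1% to 62.8% and 21.7% to 49.6% in wild type libraries. The shares did not overlap between groups, with a difference of 23.5 percentage points, although single-library intervals of the 2 groups did. How often shares of other gene pairs separate in this way was not computed. A two-sided exact permutation test, which doubles the smaller one-sided p, gave p = 0.2. That is the smallest this test can give for 3 against 2 libraries, so it cannot reach 0.05. Adjusted over the 13 ratios and shares computed here, p was 0.236. The P4ha1 share of P4ha1 and P4ha2 counts was 63.9%, 71.9% and 69.6% in knockout libraries, against 81.2% and 72.5% in wild type libraries. Its groups were barely apart (exact permutation p = 0.2, adjusted 0.236), and the single-library intervals overlapped widely.

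Plod2 is spliced with or without 1 exon of 63 bases, which is present in 1 of its 2 coding transcripts. The long form is the one tied to telopeptide hydroxylation. The deposited length of Plod2, an average over its transcripts as estimated in each library, was 3700, 3719 and 3719 bases in knockout libraries, against 3656 and 3719 bases in wild type libraries, a span of 63 bases. The wild type libraries, with 18 and 17 Plod2 counts, sat at opposite ends of that span. So few counts over the whole transcript cannot show whether use of the exon differed between genotypes.

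**Figure D2:**
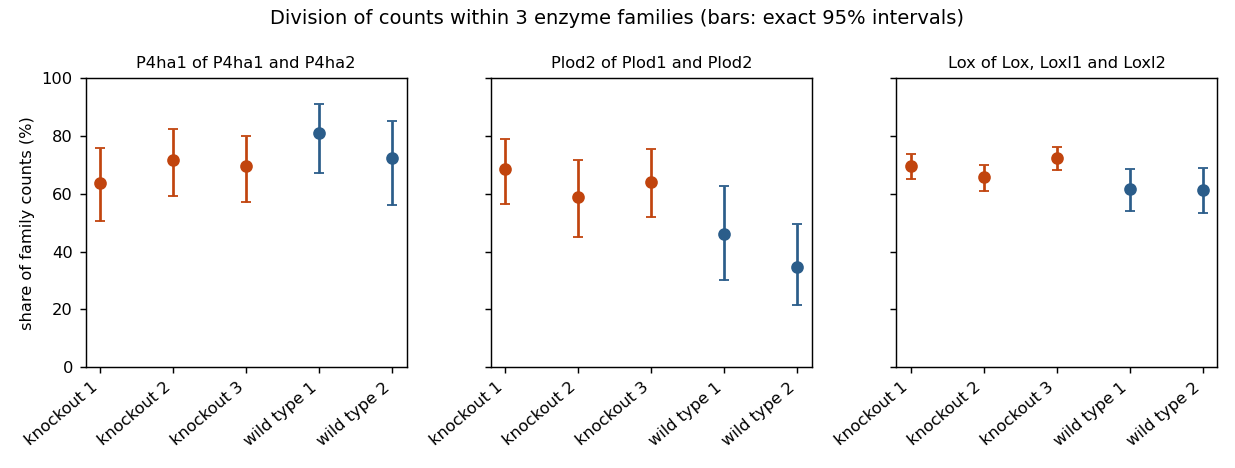
Percent of counts in each library: P4ha1 of P4ha1 and P4ha2 (left), Plod2 of Plod1 and Plod2 (middle), Lox of Lox, Loxl1 and Loxl2 (right). Knockout libraries are orange and wild type libraries blue, and whiskers are exact 95% binomial intervals, which cover counting error only. P4ha3, Plod3, Loxl3 and Loxl4 are not counted. The Plod2 points lie at 58.9% to 68.6% in knockout and 34.7% to 46.2% in wild type libraries, while the Lox points differ by fewer percentage points.

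Serpinh1 (chromosome 7, 99345375 to 99353239, mm10) encodes HSP47, which binds the folded procollagen helix and releases it in the Golgi. It had 122, 114 and 122 counts in knockout libraries, against 29 and 25 in wild type libraries. The levels were 586, 542 and 494 CPM in knockout libraries, against 136 and 133 CPM in wild type libraries. No knockout library came near the wild type range, and Serpinh1 rose by 2.00 (SE 0.21, adjusted p = 3.3e-18, edgeR). With any 1 library left out the log2 fold change stayed within 1.95 to 2.06, past the test each time.

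Among the propeptide trimming genes, Pcolce (chromosome 5, 137605105 to 137611522, mm10) encodes the procollagen C-proteinase enhancer, which has no protease activity and speeds the cut made by BMP1. Pcolce had 23, 25 and 38 counts in knockout libraries, against 4 and 5 in wild type libraries. In CPM this was 110, 119 and 154 in knockout libraries, against 18.8 and 26.6 in wild type libraries. The wild type counts were just above the limit of 3 counts and the gap between groups was wide, and Pcolce rose by 2.49 (SE 0.46, adjusted p = 1.96e-06, edgeR). Leaving out 1 library at a time gave 2.23 to 2.73, past the test each time. Of its annotated exon bases 112 lie opposite Gm36266 and 112 overlap Fbxo24 on the same strand.

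Bmp1 (chromosome 14, 70474555 to 70520716, mm10), the C-proteinase itself, which also activates lysyl oxidase by removing its propeptide, had 149, 190 and 154 CPM in knockout libraries, against 108 and 85.0 CPM in wild type libraries. The groups did not overlap, yet the difference of 0.75 (SE 0.31, adjusted p = 0.0745, edgeR) did not pass. Adamts2, which removes the N-propeptide, had 134, 95.1 and 89.0 CPM in knockout libraries, against 79.9 and 95.7 CPM in wild type libraries, at 0.27 (adjusted p = 0.665). The enhancer passed the test and the 2 proteases did not, although the difference between their fold changes was not tested.

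Cross-linking enzymes were led by Lox, lysyl oxidase, which oxidizes lysine and hydroxylysine of the telopeptides and of elastin. Lox had 308, 294 and 373 counts in knockout libraries, against 112 and 99 in wild type libraries. Levels were 1480, 1398 and 1509 CPM in knockout libraries, against 526 CPM in both wild type libraries, so neither group spread much. Lox rose by 1.47 (SE 0.14, adjusted p = 1.97e-23, edgeR), and by 1.45 to 1.51 with any 1 library left out, past the test each time.

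Loxl2 (chromosome 14, 69608692 to 69695834, mm10), a relative with scavenger receptor domains that cross-links type IV collagen, had 600.5, 637 and 502 CPM in knockout libraries, against 254 and 303 CPM in wild type libraries. The groups were well apart, and Loxl2 rose by 1.06 (SE 0.18, adjusted p = 1.74e-07, edgeR), or by 0.91 to 1.18 with 1 library left out, past the test each time. Its counts were not whole in knockout 1 and 3 and wild type 2, and 301 of its exon bases lie opposite Gm27177, whose reads cannot be told apart without a known strand setting. The rows of Loxl2, Lox, Loxl1 and Bmp1 each include 1 transcript outside RefSeq.

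Loxl1 (chromosome 9, 58287723 to 58313212, mm10), needed for elastic fibres, had 48.0, 90.3 and 76.9 CPM in knockout libraries, against 75.2 and 26.6 CPM in wild type libraries. The groups overlapped on 5 to 19 counts, and the log2 fold change of 0.46 (SE 0.42, adjusted p = 0.505, edgeR) turned to -0.07 without wild type 2. Lox made up 69.5%, 65.8% and 72.3% of the counts of Lox, Loxl1 and Loxl2 in knockout libraries, against 61.5% in both wild type libraries. These shares did not overlap, at a difference of 7.68 percentage points, with an exact permutation p = 0.2 (adjusted 0.236). Single-library intervals of the knockout and wild type libraries did overlap. The shares leave out Loxl3 and Loxl4, so they are not shares of all lysyl oxidase counts. Loxl3 had 127, 102 and 173 counts in knockout libraries, against 91 and 78 in wild type libraries.

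Per unit length, the order of the enzymes was similar at the top and differed below it. On the FPKM scale Lox was the highest of the 10 and Serpinh1 the second in every library, at 226 ± 13.4 and 178 ± 20.9 FPKM in the knockout (SD, n = 3) and 81.6 ± 1.20 and 44.5 ± 1.51 FPKM in wild type libraries (n = 2). Loxl2 followed at 78.0 ± 11 FPKM in the knockout and 38.9 ± 5.31 FPKM in wild type libraries, its range overlapping that of Pcolce in the knockout and that of Plod1 in wild type libraries. Pcolce ranked 4, 4 and 3 of the 10 in the knockout libraries, at 56.3, 57.7 and 73.4 FPKM, and 10 and 9 in wild type libraries, at 9.36 and 13.5 FPKM.

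Below these, Plod2, P4ha1, P4ha2 and Bmp1 formed a group in the knockout libraries, with means of 36.8, 35.2, 29.7 and 27.6 FPKM and neighbouring ranges that overlapped. Plod1 was below them at 23.2 ± 1.35 FPKM and Loxl1 was the lowest at 15.4 ± 4.28 FPKM. In the wild type libraries Plod1 and P4ha1 stood next to Loxl2, both at 30.3 FPKM, with Plod1 spread from 22.0 to 38.6 FPKM. Plod2, P4ha2 and Bmp1 came next, at 17.4, 16.6 and 16.4 FPKM with overlapping ranges, and Pcolce and Loxl1 were the lowest at 11.4 and 11.2 FPKM.

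Levels of the enzymes were next set against those of their substrate. The 5 fibrillar chains Col1a1, Col1a2, Col3a1, Col5a1 and Col5a2 all rose, by 1.63, 1.51, 1.38, 1.44 and 1.11 on the log2 scale, and held 2581, 2410 and 2827 counts in knockout libraries, against 911 and 858 in wild type libraries. For each 1000 of these counts the 10 genes together had 291, 310 and 302 in knockout libraries, against 357 and 345 in wild type libraries. A ratio within a library needs no scaling between libraries, but it shows unequal change only, and its denominator was 2.66-fold higher in knockout than in wild type libraries. A gene that rose less than the collagens is lower on this measure. Of 3705 other tested genes, 86.4% had fewer counts per collagen count in every knockout library than in either wild type library, 0.81% had more, and the median log2 ratio was -1.41.

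Relative to collagen, Lox had 119, 122 and 132 counts per 1000 collagen counts in knockout libraries, against 123 and 115 in wild type libraries, and the groups overlapped, with means of 124 and 119 (exact permutation p = 0.6, adjusted 0.6). Serpinh1 had 47.3, 47.3 and 43.2 per 1000 in knockout libraries, against 31.8 and 29.1 in wild type libraries, higher in all 3 knockout libraries. Pcolce had 8.91, 10.4 and 13.4 per 1000 in knockout libraries, against 4.39 and 5.83 in wild type libraries, also higher in all 3.

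P4ha1, P4ha2, Plod1 and Plod2 had fewer counts per collagen count in every knockout library than in either wild type library. The same held for 86.4% of the tested genes, so nothing about these hydroxylases is read from that direction. P4ha1 had 15.1, 19.1 and 17 per 1000 collagen counts in knockout libraries, against 42.8 and 33.8 in wild type libraries. Plod1 had 8.52, 9.54 and 8.84 per 1000 in knockout libraries, against 23.0 and 37.3 in wild type libraries. P4ha2 and Plod2 differed by less, with means of 7.81 in knockout against 11.3 in wild type libraries for P4ha2, and 16.1 against 19.8 for Plod2.

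Bmp1 (means of 14.0 in the knockout and 21.9 in wild type libraries) and Loxl2 (49.3 and 62.9) were also lower per 1000 collagen counts in all 3 knockout libraries, although Loxl2, like Plod2, rose in CPM, and Loxl1 overlapped. That leaves 6 of the 10 lower and 2 higher, against 86.4% lower and 0.81% higher over the tested genes. For the 8 genes whose groups did not overlap the exact permutation p was 0.2, the smallest this test can give. It was 0.236 after adjustment over the 13 ratios and shares. These are thus separations of 3 against 2 libraries that the design cannot bring past 0.05.

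**Figure D3:**
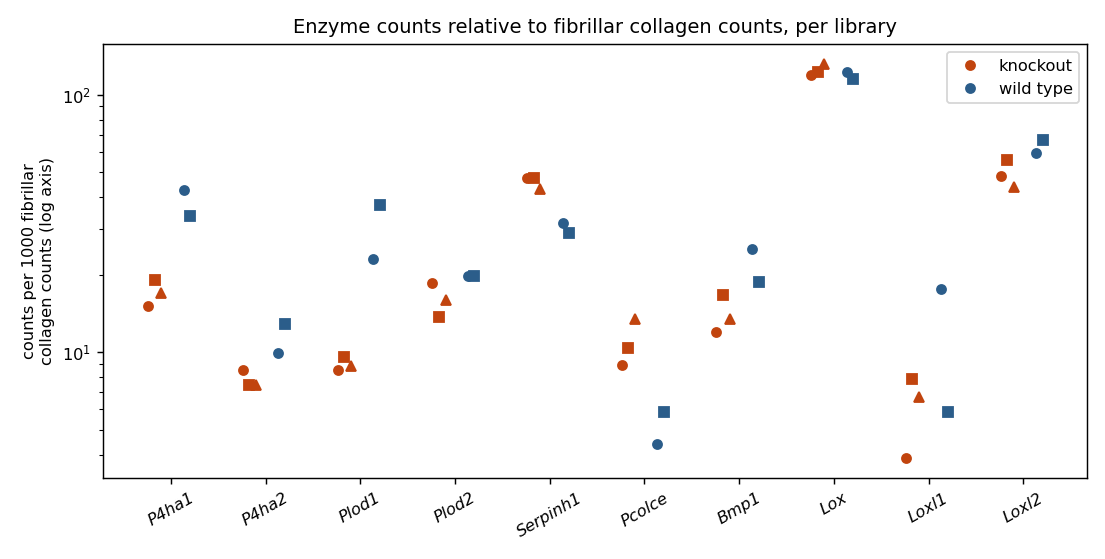
Counts of each gene per 1000 counts of 5 fibrillar collagen chains (log axis) in the 3 knockout (orange) and 2 wild type (blue) libraries, 1 point per library. Serpinh1 and Pcolce lie higher in knockout libraries, Lox and Loxl1 overlap, and the remaining 6 genes lie lower in knockout libraries, as 86.4% of tested genes do on this measure.

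Other genes of procollagen maturation and export were drawn from a list of 42, of which 38 had a row and 18 had enough counts to test. Of those, 5 rose, 1 fell and the other 12 missed the threshold, with a median log2 fold change of 0.34. Over all 3710 tested genes 8.19% rose and 8.14% fell in edgeR, with a median of 0.007. The list was chosen with earlier results of these data known, so its counts describe it and do not test it as a set. Of the 5 tested genes of the hydroxylation machinery, 1 rose. Crtap, a subunit of the complex that hydroxylates single prolines at the 3 position and helps fold type I collagen, had 17, 13 and 19 counts in knockout libraries, against 5 and 5 in wild type libraries. It rose by 1.54 (SE 0.50, adjusted p = 0.0164, edgeR), but the call depended on the settings. Adjusted p was 0.0563 without knockout 3, 0.192 without wild type 1, 0.116 without wild type 2, 0.0612 with the replicate number as a block, 0.203 in limma voom and 0.0621 with no filter on low counts, with log2 fold changes of 1.43 to 1.62 in these fits.

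Both tested folding helpers rose. Fkbp10, the prolyl isomerase FKBP65 that works with HSP47 and whose loss causes brittle bones in humans, had 125, 124 and 85.0 CPM in knockout libraries, against 23.5 and 15.9 CPM in wild type libraries. The groups were far apart, and it rose by 2.43 (SE 0.48, adjusted p = 1.28e-05, edgeR), though not past the test in limma voom (2.30, adjusted p = 0.0783). Its exons share 193 bases with Nt5c3b on the other strand, which had 23, 44 and 44 counts in knockout libraries, against 15 and 8 in wild type libraries. Fkbp9, a related isomerase of the endoplasmic reticulum, had 178, 181 and 158 CPM in knockout libraries, against 56.4 and 101 CPM in wild type libraries. It rose by 1.14 (SE 0.32, adjusted p = 0.00468, edgeR), but did not pass once wild type 1 was left out (0.74, adjusted p = 0.307) or in limma on log2(FPKM + 1) (1.11, adjusted p = 0.0520).

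All 3 further cross-linking genes that were tested passed. Efemp2, the fibulin that brings lysyl oxidase to its substrate, had 130, 162 and 72.8 CPM in knockout libraries, against 14.1 and 31.9 CPM in wild type libraries. Its wild type counts were only 3 and 6, and it rose by 2.38 (SE 0.47, adjusted p = 9.01e-06, edgeR). Its exons share 173 bases with Mus81 on the other strand, which had at most 3 counts in any library. Loxl3, a further lysyl oxidase, had 610, 485 and 700 CPM in knockout libraries, against 428 and 415 CPM in wild type libraries. It rose by 0.51 (SE 0.16, adjusted p = 0.0146, edgeR), but did not pass when knockout 3 (0.38), wild type 1 (0.52) or wild type 2 (0.49) was left out, nor with the block (0.38), DESeq2 (0.52), limma on log2(FPKM + 1) (0.45) or no filter (0.54). Loxl3 shares 535 exon bases with Htra2 on the other strand, which had 39, 37 and 43 counts in knockout libraries, against 27 and 29 in wild type libraries.

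Tgm2, tissue transglutaminase, which links proteins by another chemistry and is made by macrophages as well as stromal cells, was the 1 gene of the list to fall. It had 130, 124 and 113 CPM in knockout libraries, against 282 and 239 CPM in wild type libraries, which is -1.10 on the log2 scale (SE 0.26, edgeR adjusted p = 4.4e-04). The call was lost without wild type 1 (-0.99, adjusted p = 0.0534), and 1003 of its exon bases lie opposite other genes. The macrophage markers named above fell in the same libraries, and their part in this result was not tested.

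None of the 6 tested genes of export from the endoplasmic reticulum passed in edgeR, DESeq2 or limma, with 3 at an unadjusted p under 0.05. Nor did Colgalt1, the 1 tested collagen galactosyltransferase (0.04, adjusted p = 0.963), with 10 to 16 counts per library. Of its exon bases 495 lie opposite Unc13a, which had 576, 625 and 734 counts in knockout libraries, against 424 and 339 in wild type libraries. Mia3, which encodes the cargo receptor TANGO1 for procollagen, was listed at 5232 to 6081 CPM in knockout libraries, against 4872 and 5023 CPM in wild type libraries, including 3 transcripts outside RefSeq. Its log2 fold change was 0.20 (adjusted p = 0.155), and past the test without knockout 1 (0.27) and with no scaling factors (0.22). The 20 listed genes too low to test included 3 whose ratio of summed counts had an exact 95% interval above 1. They were named after their values were seen, and the intervals pool libraries and cover counting error only. The share of all low genes with such an interval was not computed, so the 3 are not read as a result about the pathway. P3h1, a prolyl 3-hydroxylase, had 37 counts in the knockout and 9 in wild type libraries, a ratio of 2.48 (1.17 to 5.83). Fkbp7, another isomerase, had 20 and 3 counts, a ratio of 4.02 (1.19 to 21.1), but 2 counts in both knockout 1 and wild type 1. Kdelr3, a receptor that returns proteins to the endoplasmic reticulum, had 22 and 3, a ratio of 4.42 (1.33 to 23.1).

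**Figure D4:**
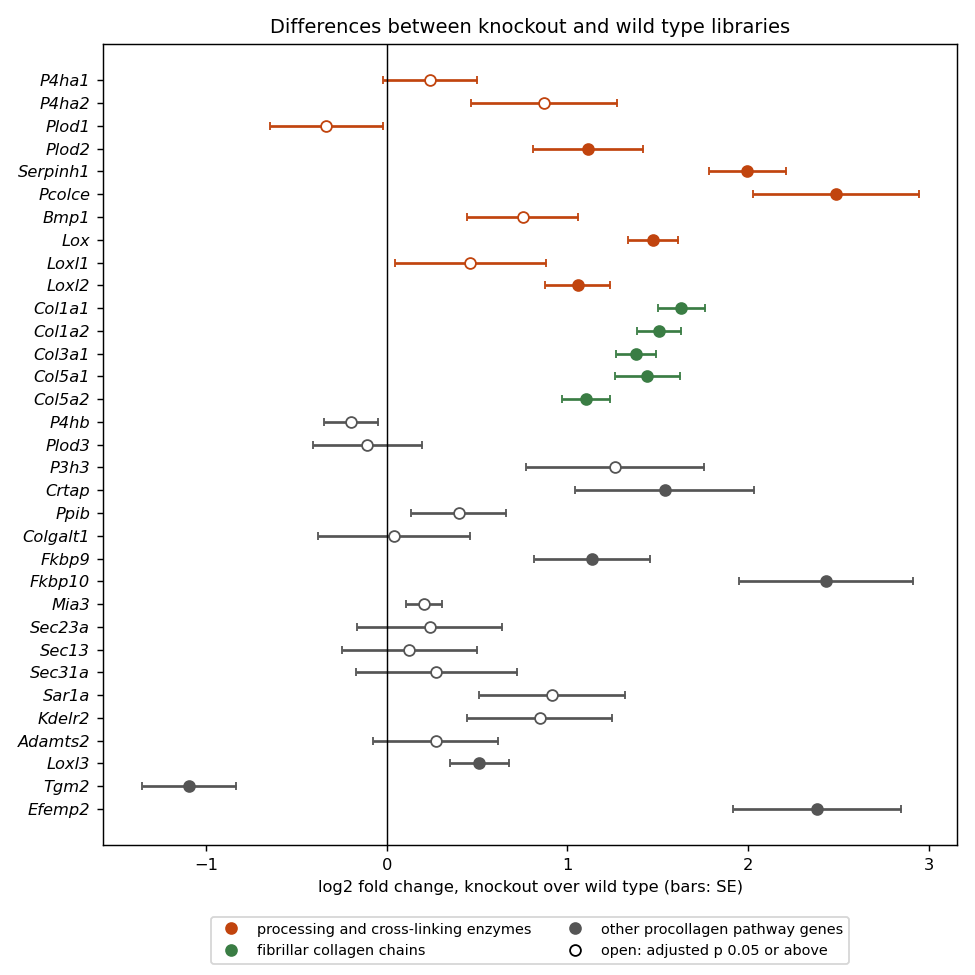
Log2 fold change of knockout over wild type with its SE for the 10 processing and cross-linking enzymes (orange), 5 fibrillar collagen chains (green) and 18 other tested genes of the pathway (grey); filled points passed an adjusted p of 0.05 in edgeR. Pcolce at 2.49 and Fkbp10 at 2.43 lie farthest to the right, Tgm2 at -1.10 farthest to the left, and the 6 export genes from Mia3 to Kdelr2 are all open.

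For the enzyme with the highest mean CPM in each step (P4ha1, Serpinh1, Bmp1 and Lox), the genes most like it in pattern were taken as those at the smallest Euclidean distance of centred log2 CPM over the 5 libraries, among 1482 genes with a mean of at least 100 CPM. Nearest to Serpinh1 were Acta2, a smooth muscle actin (distance 0.235), and Rspo2, a WNT amplifier (0.280). Lox had Prss57 (0.150), a serine protease, and Col5a1 (0.162), a type V collagen chain, beside it. For Bmp1 they were 4933428G20Rik (0.0784) and Nedd4, a ubiquitin ligase (0.167), and for P4ha1 B3gat2 (0.112) and Hbp1 (0.114). Of these, Prss57, B3gat2, Hbp1 and 4933428G20Rik share 1157, 2076, 1514 and 268 exon bases with genes on the other strand. The row of Prss57 holds 3 transcripts, of which 2 lie outside RefSeq. The 5 libraries fall in 2 groups, so a gene with a similar fold change and a small spread is near by construction.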

How the data were processed

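Total RNA of 5 libraries was sequenced, 3 knockout and 2 wild type. The authors deposited 1 table per library with expected counts, FPKM and a length in bases per gene, per the file headers. Per the submitters' processing notes, HISAT2, StringTie, Bowtie2, RSEM and mm10 were used, without stated roles. The sources used here give no strand setting. The deposited FPKM values scale the counts by library and gene length, per the file headers' name for them. A gene absent from a table was taken as 0. Rows without a symbol held 2.3 to 7.5 counts per library.

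Counts were rounded to whole numbers and tested with edgeR 4.0.16 in R 4.3.3: filterByExpr (minimum count 10, minimum total 15), TMM, genotype as the 1 term of a robust quasi-likelihood fit, and p-values adjusted by Benjamini-Hochberg, called under 0.05. Standard errors were derived from the quasi-likelihood F. The fit was tested on simulated data with changes placed only in genes above a set mean count, so this does not check calls at low counts. DESeq2 1.42.0 and limma 3.58.1 (voom, and log2(FPKM + 1) with a pseudocount of 1) were alternatives, with other scalings and filters, unrounded counts, a replicate block and each library left out. Ratios and shares used two-sided exact permutation tests; intervals are exact at 95% and, like the limit of 3 counts, cover counting error only. Coordinates are RefSeq's on GRCm38, the assembly of mm10, and exon overlaps come from GENCODE M21.

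The members and lists were chosen with earlier results of these data known. Named were all 10 members, the fibrillar chains, Arntl, the highest 2 tested members of each marker list and the genes nearest in pattern. From the pathway list came up to 3 genes per step and direction by adjusted p, and the most abundant gene per step that did not pass. Outside these rules, Plod3, P3h1, Fkbp7, Kdelr3, Cd44, Thy1, Acta1, Hba-a1 and Cd3e were also named.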

Additional observations from a re-analysis of the deposited data

How the results depend on the processing

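The same 5 enzymes rose under RLE, upper quartile or no scaling, TMM without macrophage markers, no or a stricter filter, unrounded counts, DESeq2, limma voom, the replicate block and with any knockout library left out; under limma on log2(FPKM + 1) and without either wild type library 4 of the 5 did, all but Plod2. P4ha2 and Loxl1 were not tested at a minimum count of 20. Over all genes 304 rose and 302 fell, against 170 and 139 with DESeq2 and 171 and 171 with limma on log2(FPKM + 1). With 1 library left out 144 to 323 rose and 146 to 287 fell, the lowest counts being those without a wild type library, where the remaining one is assumed to vary like the knockout libraries. Of the other pathway genes 5 rose, against 3 with no filter, 3 with DESeq2, 3 with limma voom, 3 with limma on log2(FPKM + 1) and 3 to 6 with 1 library left out, while 0 to 1 fell. The macrophage markers that fell numbered 9, against 6 with no filter, 6 with limma on log2(FPKM + 1), 4 with DESeq2 and 4 to 9 with 1 library left out. The replicate numbers of the 2 groups are not said to pair libraries, and deviations of same-numbered libraries correlated at -0.008 and 0.026; with the number as a block 229 rose and 212 fell. With 1 library left out the log2 fold change ranged from -0.707 to 0.088 for Plod1, from -0.065 to 1.40 for Loxl1, from -0.28 to 0.39 for Colgalt1 and from -0.10 to 0.088 for Emcn. Signs also turned for Emcn with upper quartile scaling (-0.008), limma voom (-0.005) and limma on log2(FPKM + 1) (-0.025). Per 1000 collagen counts the log2 ratio of Lox turned to -0.087 with Col1a1 and Col1a2 alone as the denominator, and that of Loxl1 ranged from -1.51 to 0.08 with 1 library left out. The cause of these changes was not tested. Depth limits Pcolce, P4ha2 and Loxl1, each with a library of 11 or fewer counts.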
